A study of Mus musculus with 59 samples.

Results

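In mouse embryonic stem cells (ESCs), SMARCA5 was found mainly at CTCF sites. The share of CTCF peaks with a SMARCA5 peak differed with where the CTCF peaks lay. The comparison took the 46965 SMARCA5 peaks of ESCs with overexpressed Smarca5 and the 83173 CTCF peaks of wild-type ESCs and called a site shared where intervals of both lists overlapped by at least 1 bp. This gave 89720 sites, of the 105010 regions that remain when overlapping peaks of all 16 lists of the series are joined. Of the sites, 40418 (45.0%) were shared, 6547 (7.30%) held SMARCA5 only and 42755 (47.7%) held CTCF only. SMARCA5 lay at 84.7% of CTCF peaks within 1 kb of a protein-coding start site, at 40.5% of those more than 50 kb away, and at 16.4% of those on the X chromosome in these lists. SMARCA5-only sites were most frequent just downstream of start sites, and some lay within 1 kb of the starts of ribosomal protein genes and of genes for SMARCA5's own partner subunits.

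The series used ChIP-seq, the sequencing of DNA pulled down with a protein, to follow CTCF in cells reprogrammed to pluripotency and in ESCs, in 59 samples including inputs. The SMARCA5 list comes from 2 ChIP samples of E14Tg2a ESCs that overexpress a Flag- and biotin-tagged Smarca5. Per the labels' protocols, the tagged protein and the biotin ligase birA came from lentiviruses, single clones were picked after puromycin, and tagged SMARCA5 was pulled down on streptavidin beads. The CTCF list comes from 1 sample of wild-type E14Tg2a ESCs, taken with an antibody against CTCF, and a further CTCF list from 1 sample of Smarca5 knockout E14Tg2a ESCs. SMARCA5 and CTCF were thus mapped in different cells, and a SMARCA5 peak here is a place bound by the tagged, overexpressed protein. A list from untagged cells on streptavidin beads was not used here. The other 13 CTCF lists come from reprogramming cells: unsorted day 0 cells, day 10 cells, and Thy1+, SSEA1- Thy1-, SSEA1+ and Oct4-GFP+ sorted cells, with the shRNAs and factors named where they are used.

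Each list holds intervals of 400 bp on the mm10 build (GRCm38) with a score of 0 for every peak, so peaks were present or absent, with no strength. All 40418 shared sites had the same start in both lists. The positions were therefore harmonised before deposit, in a way not given in the sources used here, and distances between a SMARCA5 summit and a CTCF summit could not be measured. Each group has a single list, so no difference below has a replicate check. Intervals in brackets are Wilson 95% intervals that cover counting error only. The read depth behind each list is not given in the sources used here, and peak lists cannot show the level of Smarca5 or of ESC marker genes.

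CTCF is a zinc-finger protein that binds a long DNA motif, stops cohesin as it extrudes chromatin loops and so sets loop anchors and domain boundaries. SMARCA5, also called SNF2H, is an ATPase of the ISWI family that slides and spaces nucleosomes, in complexes with partner subunits such as BAZ1A, BAZ1B, BAZ2A and RSF1. In ESCs SMARCA5 is known to be needed for the regular arrays of nucleosomes beside CTCF sites and for full CTCF binding.

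A few promoters are printed as examples from the 3 classes, and not as typical members of them. The sequences are the 250 bases before the start site of 6 genes, from RefSeq on GRCm38.p6, written in the direction of transcription, with the letters of the CTCF consensus and core, NRF1, ETS and YY1 motifs and the cAMP response element in capitals. GC boxes and the octamer, which were also searched, stay in lower case. The genes were chosen after their values were seen, as promoters with a peak over the window and a motif in it. Rplp0 and Rps4x encode ribosomal proteins, Pds5b a cohesin regulator, Rpl18 and Rpl35a ribosomal proteins, and Neurog1 a neuronal transcription factor. Rplp0, Rps4x and Pds5b had a shared peak, Rpl18 and Rpl35a a SMARCA5-only peak, and Neurog1 a CTCF-only peak.
Rplp0, shared, chr5:115559217-115559466, plus strand: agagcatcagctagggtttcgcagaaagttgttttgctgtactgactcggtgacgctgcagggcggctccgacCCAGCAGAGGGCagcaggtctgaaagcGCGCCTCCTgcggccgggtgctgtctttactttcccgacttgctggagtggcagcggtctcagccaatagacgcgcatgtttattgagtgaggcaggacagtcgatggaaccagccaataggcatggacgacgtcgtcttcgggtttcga
Rps4x, shared, chrX:102189392-102189641, minus strand: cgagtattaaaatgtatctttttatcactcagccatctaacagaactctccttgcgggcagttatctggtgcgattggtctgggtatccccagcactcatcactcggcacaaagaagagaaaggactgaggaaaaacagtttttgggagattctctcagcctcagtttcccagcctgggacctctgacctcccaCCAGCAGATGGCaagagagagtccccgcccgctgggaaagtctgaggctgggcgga
Pds5b, shared, chr5:150673577-150673826, plus strand: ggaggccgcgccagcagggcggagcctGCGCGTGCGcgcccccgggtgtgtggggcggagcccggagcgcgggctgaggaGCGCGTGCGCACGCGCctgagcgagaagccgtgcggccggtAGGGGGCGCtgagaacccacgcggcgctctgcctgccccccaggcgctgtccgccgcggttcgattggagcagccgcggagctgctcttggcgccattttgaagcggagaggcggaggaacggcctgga
Rpl18, SMARCA5 only, chr7:45717821-45718070, plus strand: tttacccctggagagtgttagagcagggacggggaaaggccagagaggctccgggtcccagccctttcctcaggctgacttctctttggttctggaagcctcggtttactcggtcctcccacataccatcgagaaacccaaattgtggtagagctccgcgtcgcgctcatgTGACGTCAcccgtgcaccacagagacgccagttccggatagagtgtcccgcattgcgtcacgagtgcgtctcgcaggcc
Rpl35a, SMARCA5 only, chr16:33056264-33056513, plus strand: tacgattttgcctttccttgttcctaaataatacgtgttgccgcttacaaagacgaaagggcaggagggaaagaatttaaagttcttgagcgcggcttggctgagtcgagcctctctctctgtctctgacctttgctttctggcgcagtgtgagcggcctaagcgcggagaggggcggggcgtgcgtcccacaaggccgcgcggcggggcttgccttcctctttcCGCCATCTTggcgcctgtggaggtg
Neurog1, CTCF only, chr13:56252181-56252430, minus strand: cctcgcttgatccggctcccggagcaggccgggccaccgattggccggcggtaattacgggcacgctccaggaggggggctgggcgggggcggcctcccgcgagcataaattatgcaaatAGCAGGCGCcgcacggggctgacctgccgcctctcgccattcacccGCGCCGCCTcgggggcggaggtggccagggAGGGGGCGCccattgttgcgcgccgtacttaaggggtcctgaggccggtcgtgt
In Rplp0 and Rps4x the longer run of capitals is the CTCF consensus, which began 177 bases before the start of Rplp0 and 56 bases before that of Rps4x. The shorter run in Rplp0, the last run in Pds5b and all runs in Neurog1 are the core of the CTCF motif, and the other runs in Pds5b are NRF1 motifs. The capitals in Rpl18 are a cAMP response element and those in Rpl35a a YY1 motif. The shared peak at Rplp0 spanned chr5:115559116-115559515 and covered all of the printed bases. The SMARCA5-only peak at Rpl18 spanned chr7:45717885-45718284, and that at Rpl35a chr16:33056431-33056830.

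Across all promoters, the CTCF consensus was most frequent in the classes with CTCF, and the NRF1 and ETS motifs in those with SMARCA5. Windows ran from 250 bases before to 50 bases after each start site, and were counted where a peak of 1 class overlapped them: 3619 with a shared peak, 1242 with a SMARCA5-only peak and 436 with a CTCF-only peak, of 21238 in all. Motifs were sought on both strands. The CTCF consensus, in its 12-letter form with ambiguity codes, was in 2.65% (2.18 to 3.23) of shared windows, 0.322% (0.125 to 0.825) of SMARCA5-only windows and 2.52% (1.41 to 4.46) of CTCF-only windows. It was in 0.560% of all windows and in 0.0502% of those with no peak. The interval of the SMARCA5-only windows reached neither that of the shared nor that of the CTCF-only windows.

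The shorter CTCF core, AGNNGGCGC, can overlap the end of the consensus, running past it, and can overlap a GC box. It was in 22.3% of shared, 12.2% of SMARCA5-only and 15.4% of CTCF-only windows, against 9.18% of all windows. The NRF1 motif GCGCNTGCG, bound by a regulator of nuclear genes for mitochondria, was in 14.1% of shared, 17.7% of SMARCA5-only and 8.26% of CTCF-only windows, against 8.61% of all. The ETS motif CCGGAAGT was in 9.15%, 10.8% and 3.67% of the same classes, against 5.15% of all. For YY1, AAGATGGCG, the shares were 2.65%, 3.78% and 1.15%, against 1.83% of all. The cAMP response element TGACGTCA was in 3.09% of shared, 4.51% of SMARCA5-only and 1.83% of CTCF-only windows, against 2.24% of all. The octamer ATGCAAAT, bound by OCT4, was in 1.05% of shared, 1.05% of SMARCA5-only and 1.83% of CTCF-only windows, against 1.66% of all, and the intervals of the 3 classes overlapped. The GC box GGGCGG was in 71.0%, 68.4% and 57.1% of the classes, against 46.2% of all. Base composition differed too. The median GC content was 64.0% in shared, 62.7% in SMARCA5-only and 59.5% in CTCF-only windows, against 56.3% in all. Of the motifs, only the GC box had the classes in this order. The part of base composition in the motif shares was not tested.

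Where the peaks lay around start sites differed between the classes. Of SMARCA5-only sites, 25.9% (24.8 to 27.0) were within 1 kb of a protein-coding start site, against 12.7% (12.4 to 13.1) of shared sites and 2.18% (2.05 to 2.33) of CTCF-only sites. Start sites were available for 20 of the 21 chromosomes with peaks, and sites on chromosome 18 were left out of these shares. The SMARCA5-only sites near starts lay mostly inside the gene: 32.0% (29.8 to 34.3) of them were upstream, against 47.5% (46.1 to 48.9) of the shared and 59.0% (55.8 to 62.2) of the CTCF-only sites near starts. In bins of 100 bp, SMARCA5-only sites were most frequent in the bin centred 150 bp downstream of the start, with 262 sites, and shared sites in the 100 bp just upstream, with 798 sites. CTCF-only sites had 87 in that upstream bin. Farther out, 31.2% of SMARCA5-only, 31.8% of shared and 44.3% of CTCF-only sites were more than 50 kb from a start site.

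**Figure D1:**
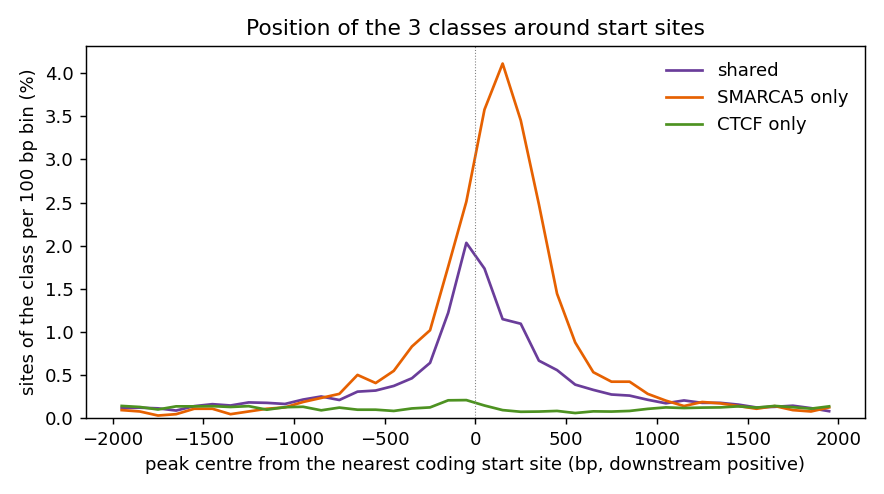
Percentage of each class of sites (vertical axis) whose centre fell in 100 bp bins around the nearest protein-coding start site (horizontal axis, bp, downstream positive), for shared, SMARCA5-only and CTCF-only sites. SMARCA5-only sites peak downstream of the start at 4.11% per bin, shared sites just upstream at 2.03%, and CTCF-only sites stay at or below 0.210% in the bins from 450 bp upstream to 850 bp downstream.

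The SMARCA5-only sites were of 2 kinds in the knockout cells. CTCF had a peak in Smarca5 knockout ESCs at 3107 of them (47.5%) and none at 3440. Of shared sites 98.0% had a CTCF peak in the knockout, and of CTCF-only sites 96.3%. The knockout list held 89567 CTCF peaks, against 83173 in the wild-type list. Start sites lay within 1 kb of 30.7% (29.2 to 32.3) of SMARCA5-only sites without CTCF in the knockout. The share was 20.6% (19.2 to 22.0) for SMARCA5-only sites with it. Promoter windows with a SMARCA5-only peak but no knockout CTCF peak held the YY1 motif in 4.88% (3.59 to 6.59) of 800, against 1.81% (0.920 to 3.53) of 442 with one. The ETS motif was in 12.1% (10.0 to 14.6) against 8.37% (6.13 to 11.3) of these windows, with overlapping intervals. The intervals of the other motifs overlapped as well. Lower without a knockout peak were the GC box (66.25% against 72.4%), CTCF core (11.75% against 13.1%), cAMP response element (4.25% against 4.98%) and octamer (1.00% against 1.13%). The NRF1 motif was in 18.25% against 16.7%, and the CTCF consensus in 4 of 800 against 0 of 442.

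Among the lists with at least 20 promoters, ribosomal protein genes had the highest share of promoters with a SMARCA5-only site. Of 63 with a start site in the reference, 19 (30.2%) had a SMARCA5-only site within 1 kb of it, where 10.4% of all 17492 protein-coding genes did. A shared site was there in 28 (44.4%), against 29.4% of all genes, and a CTCF-only site in 2 (3.17%), against 5.24%. The 19 promoters had 19 different sites in all, and the 28 had 28. Whether these sites also lay at the starts of neighbouring genes outside the list was not examined. Rpl10, Rpl18 and Rpl19 were examples with a SMARCA5-only site at the start, and Rpl10l and Rpl13 with a shared site. Rpl10 lies on the X chromosome, and its only other site within 10 kb was 1 CTCF-only peak. Rpl19 had 4 SMARCA5-only and 2 shared sites within 10 kb.

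SMARCA5-only sites lay near most genes of the ISWI complexes. Within 10 kb of the gene span, 8 of 13 had one, where 25.2% of 21887 protein-coding genes did. A shared site lay within 10 kb of 12 of the 13 and a CTCF-only site of 9, against 70.0% and 65.2% of protein-coding genes. The counts were not adjusted for gene length, which was 311 kb for Baz2b. Within 1 kb of a start site, 4 of 9 had a SMARCA5-only site, against 10.4% of 17492 protein-coding genes. Baz1b and Baz2b encode large subunits that pair with SMARCA5, Pole3 a histone-fold subunit of the CHRAC complex, and Rbbp4 a histone-binding subunit, and each had a SMARCA5-only site within 1 kb of its start. At Baz1b this was the peak at chr5:135186829-135187228 and at Pole3 that at chr4:62524952-62525351. Baz1a, Baz2a, Rsf1 and Cecr2 had such a site farther from a start or had no start site in the reference. Smarca5 itself had only shared sites, at chr8:80710653-80711052 inside the gene and at chr8:80739386-80739785 over its start. Its X-linked homologue Smarca1 had 2 CTCF-only sites and no SMARCA5 peak.

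Of 16 genes for CTCF, its paralogue and cohesin factors, 14 had a shared, 6 a SMARCA5-only and 14 a CTCF-only site within 10 kb, against 70.0%, 25.2% and 65.2% of all protein-coding genes. The start of Ctcf had a SMARCA5-only site at chr8:105636942-105637341, with no CTCF peak there in wild-type or Smarca5 knockout ESCs but a CTCF peak in 9 of the 13 reprogramming-cell lists. Farther into Ctcf lay 3 CTCF-only sites and just beyond its end 1 shared site. Mau2, a part of the cohesin loader, had a SMARCA5-only site at its start, at chr8:70042392-70042791. Rad21 and Wapl, a cohesin subunit and the factor that releases cohesin, had only shared sites, 2 and 4. Cdca5, which protects cohesin from release, had 5 CTCF-only sites and no SMARCA5 peak.

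**Figure D2:**
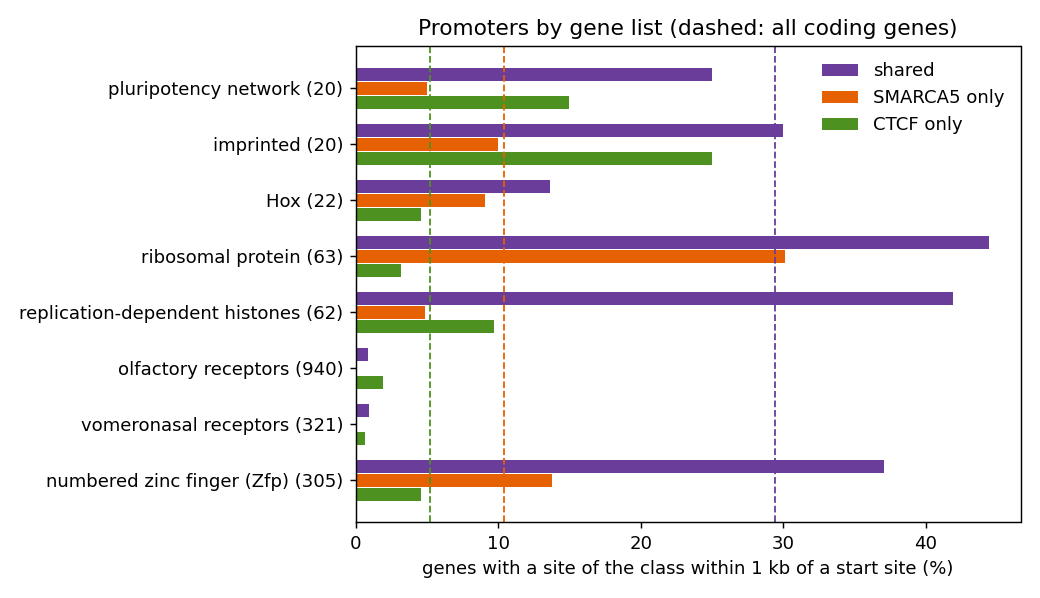
Percentage of genes (horizontal axis) with a shared, SMARCA5-only or CTCF-only site within 1 kb of a start site, for the 8 gene lists with at least 20 genes that have a start site in the reference (number in brackets). Dashed lines give the same over 17492 protein-coding genes: 29.4% shared, 10.4% SMARCA5 only and 5.24% CTCF only. Ribosomal protein genes have the longest SMARCA5-only bar, and olfactory and vomeronasal receptor genes have almost no sites.

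Zinc finger genes of the Zfp series had a shared site at 113 of 305 starts (37.0%), a SMARCA5-only site at 42 (13.8%) and a CTCF-only site at 14 (4.59%), against 29.4%, 10.4% and 5.24% of all genes with a start site. Replication-dependent histone genes had shared sites at 26 of 62 starts (41.9%), SMARCA5-only sites at 3 (4.84%) and CTCF-only sites at 6 (9.68%), against the same shares of all genes. The histone starts stand close together, and the 26 shared starts had 20 different sites. Transfer RNA genes, read by RNA polymerase III, also stood beside SMARCA5-only sites: 107 of 408 (26.2%, 22.2 to 30.7) had one within 1 kb, 103 (25.2%) had a shared site and 31 (7.60%) a CTCF-only site. Of 21887 protein-coding genes, 12373 (56.5%) had a shared, 4154 (18.98%) a SMARCA5-only and 10159 (46.4%) a CTCF-only site by the same rule. The rule counts sites inside the gene span or within 1 kb of it, and the shares were not adjusted for gene length. The 107 transfer RNA genes had 65 different SMARCA5-only sites, of which 52 were more than 1 kb from a protein-coding start. Chemoreceptor genes, silent outside sensory neurons, had few sites of any kind. Of 1106 olfactory receptor genes, 93 had a shared, 10 a SMARCA5-only and 168 a CTCF-only site within 10 kb, against 70.0%, 25.2% and 65.2% of all protein-coding genes. Of 353 vomeronasal receptor genes, 12 had a shared, 5 a SMARCA5-only and 34 a CTCF-only site. CTCF peaks near olfactory receptor genes carried SMARCA5 in 36.1% of cases, and those near vomeronasal genes in 25.5%, against 54.0% near all protein-coding genes. No site of either list was near 867 of the olfactory and 306 of the vomeronasal receptor genes, against 17.4% of all protein-coding genes. A peak near several genes counts for each in these shares.

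Pluripotency genes, whose products keep ESCs undifferentiated, mostly had both shared and CTCF-only sites. Within 10 kb, 27 of 30 had a shared site, 10 a SMARCA5-only site and 24 a CTCF-only site, against 70.0%, 25.2% and 65.2% of all protein-coding genes. Shared sites alone were near 3 of the 30, against 12.7% of all genes, and CTCF-only sites with no SMARCA5 peak near 2, against 9.30%. Nanog, a homeodomain factor of the naive state, had 3 shared, 1 SMARCA5-only and 3 CTCF-only sites. Its SMARCA5-only site at chr6:122716419-122716818 lay 9.13 kb from the 5′ end of the gene, past its far end, with no CTCF peak there in the knockout or in any of the 13 reprogramming-cell lists. The shared site 12.7 kb from the 5′ end was in all 13 of those lists, and the shared site upstream of the gene, at -7.63 kb, was in 11. The shared site inside Nanog was in 1 of them.

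Pou5f1, which encodes OCT4, had 3 shared and 2 CTCF-only sites, and its neighbouring shared and CTCF-only sites lay close together, 2.42 and 3.45 kb from the 5′ end. Fgf4, a growth factor gene driven by OCT4 and SOX2 in ESCs, had a CTCF-only site at its start and 2 shared sites within 10 kb. A SMARCA5-only site 2.61 kb into Fgf4, at chr7:144863792-144864191, had no CTCF peak in the knockout. The other SMARCA5-only site, 11.1 kb from the 5′ end and past the far end of Fgf4, did have one. Klf2 had a SMARCA5-only site 0.730 kb into the gene that did have a CTCF peak in the knockout. Klf5 and Esrrb had 1 SMARCA5-only site each. The site in Esrrb, at chr12:86508307-86508706, had no CTCF peak in either ESC list but had one in 10 of the 13 reprogramming-cell lists. Sox2, Prdm14 and Nr0b1 had only shared sites, 2, 3 and 1, and Lin28a and Tdgf1 had 3 and 4 CTCF-only sites and no SMARCA5 peak.

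**Figure D3:**
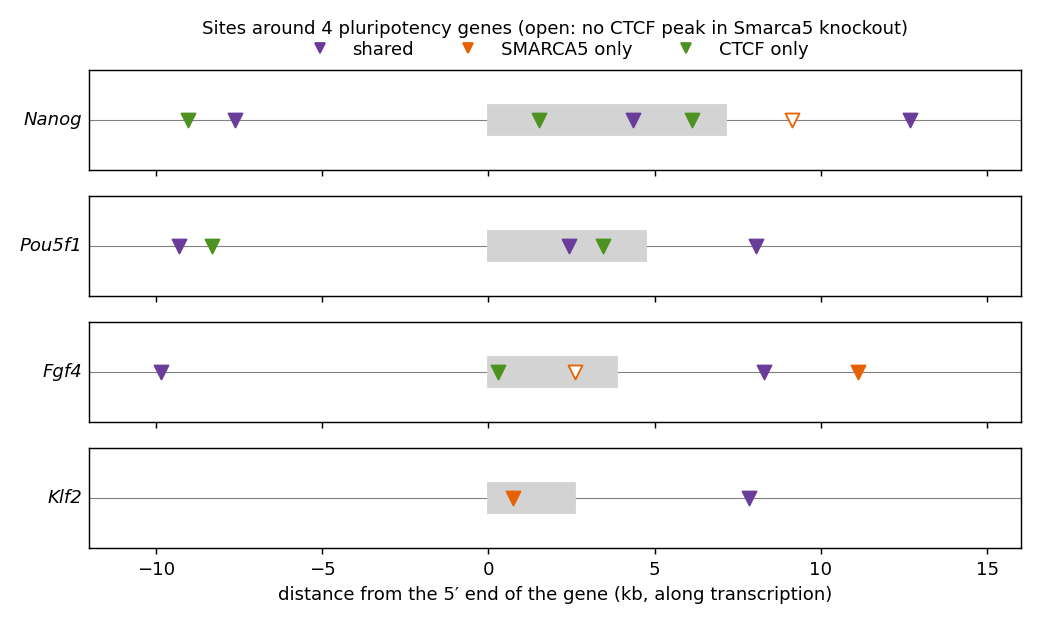
Sites within 10 kb of Nanog, Pou5f1, Fgf4 and Klf2, by distance of the site's centre from the 5′ end of the gene (horizontal axis, kb, along transcription). Grey boxes are the gene spans, colours give the class, and open symbols mark sites with no CTCF peak in Smarca5 knockout ESCs. The SMARCA5-only sites past the end of Nanog and inside Fgf4 are open. Those past the end of Fgf4 and inside Klf2 are filled, as are all shared and CTCF-only sites drawn.

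Genes of other cell types had SMARCA5 sites too. Of 16 neural genes, 13 had a shared, 4 a SMARCA5-only and 7 a CTCF-only site within 10 kb, against 70.0%, 25.2% and 65.2% of all protein-coding genes, so the SMARCA5-only count was at the share of all genes. Otx2, a homeodomain factor of the early brain, had 1 SMARCA5-only site and no other site, while Sox1, Nes and Tubb3 had 3 shared sites each and no other. Of 25 fibroblast and mesenchymal genes, 21 had a shared, 5 a SMARCA5-only and 22 a CTCF-only site, against the same shares of all genes. Thy1, a surface marker by which reprogramming cells were sorted in the series, had 2 shared, 1 SMARCA5-only and 1 CTCF-only site. Twist1 and Lum, a mesenchymal factor and a matrix proteoglycan gene, had 2 CTCF-only sites each and no SMARCA5 peak.

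Imprinted genes, which are active from the maternal or the paternal copy alone, had shared sites at 28 of 31, SMARCA5-only sites at 8 and CTCF-only sites at 27, against 70.0%, 25.2% and 65.2% of all protein-coding genes. The SMARCA5-only count was at the share of all genes. The SMARCA5-only sites at Peg3 and Mest lay close to start sites. That at Peg3, chr7:6729120-6729519, was 1100 bp downstream of the start, and that at Mest, chr6:30738161-30738560, was 307 bp downstream of one. Neither had a CTCF peak in the knockout. Zdbf2, another imprinted gene, had 2 SMARCA5-only sites near starts. The site 34 bp upstream of one start had no CTCF peak in the knockout, and the site 253 bp downstream of another had one. H19 had 2 shared sites and no other, and Peg10 had 1 CTCF-only site. Of 39 Hox genes, 33 had shared, 12 SMARCA5-only and 22 CTCF-only sites, and 12 had shared sites alone, among them Hoxa7, Hoxa11 and Hoxa13. Of all protein-coding genes, 70.0%, 25.2% and 65.2% had these sites and 12.7% had shared sites alone. Since Hox genes adjoin each other, neighbours share peaks: the SMARCA5-only peak at chr2:74697555-74697954, 9 bp upstream of the start of Hoxd9, also counts for Hoxd8 and Hoxd10.

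The clustered protocadherins, cell-surface genes whose promoters are chosen through CTCF loops, had shared sites at 57 of 57 genes within 10 kb, SMARCA5-only sites at 8 and CTCF-only sites at 41, against 70.0%, 25.2% and 65.2% of all protein-coding genes. Of the CTCF peaks there, counted per gene, 84.1% carried SMARCA5, against 54.0% for all protein-coding genes. Their spans overlap, and the same peaks count for many genes. Pcdhga1, with the longest span of its cluster, had 22 shared, 0 SMARCA5-only and 4 CTCF-only sites inside.

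Single large genes differed widely in the mix of classes. Gse1 had 29 shared, 3 SMARCA5-only and 12 CTCF-only sites inside its span of 353 kb, and Dnah8, a dynein gene, 26, 2 and 9 sites. Etl4 had the most SMARCA5-only sites inside a span, 7, beside 13 shared and 11 CTCF-only sites. Lpar1, a lysophosphatidic acid receptor gene, had 5 SMARCA5-only, 2 shared and 1 CTCF-only site. Csmd1 and Rbfox1, long genes used in the brain, were at the other end. Csmd1 had 2 shared, 0 SMARCA5-only and 34 CTCF-only sites, and Rbfox1 1, 1 and 30. Cdh13 had the most CTCF-only sites, 42, beside 14 shared and 2 SMARCA5-only sites. Camta1 was high in shared and in CTCF-only sites, with 21 shared, 3 SMARCA5-only and 33 CTCF-only.

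The X chromosome stood below every autosome in the share of CTCF peaks with SMARCA5. It was 16.4% (14.9 to 18.0) of 2107 CTCF peaks on X, against 49.4% (49.1 to 49.8) of 81036 on the autosomes, which ranged from 43.0% on chromosome 12 to 52.3% on chromosome 10. The Y chromosome had 6 shared, 3 SMARCA5-only and 24 CTCF-only sites. In windows of 10 Mb with at least 50 CTCF peaks, the 15 windows on X ran from 5.36% to 25.5% with a median of 14.3%, and the 252 autosomal windows from 19.4% to 61.5% with a median of 48.4%. Of the 252, 1 lay at or below the highest X window. X held 383 of the SMARCA5 peaks (0.816%) and 2107 of the wild-type CTCF peaks (2.53%). In the other 14 CTCF lists X held between 2.09% and 2.88% of peaks, so the lower share was found in the SMARCA5 list and in none of the CTCF lists. SMARCA5 was mapped in other cells and with another pulldown than CTCF, so lower SMARCA5 binding on X cannot be told apart from a difference in clone, input or peak calling between the lists.

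**Figure D4:**
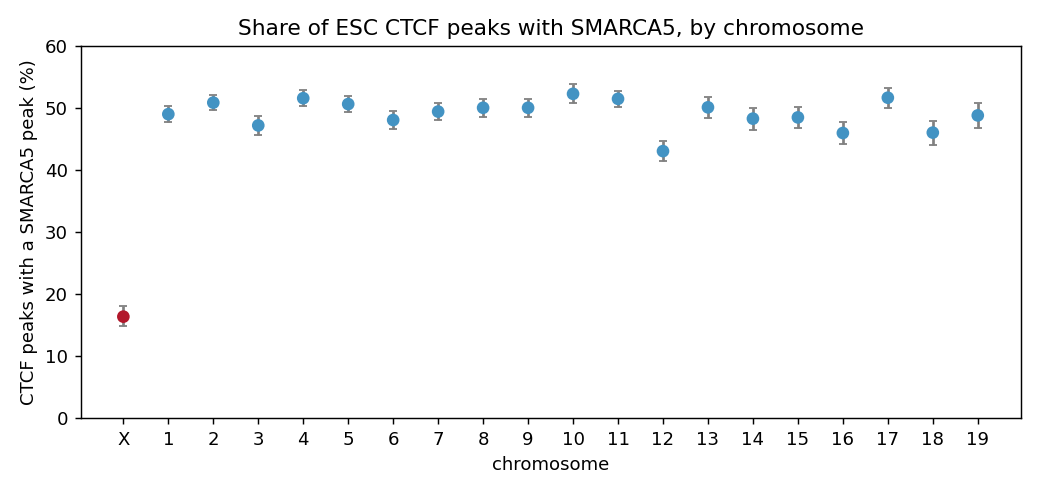
Percentage of wild-type ESC CTCF peaks with a SMARCA5 peak (vertical axis) for X and the 19 autosomes (horizontal axis), with Wilson 95% intervals that cover counting error only. X lies at 16.4%, and the autosomes between 43.0% and 52.3%.

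Near start sites, SMARCA5 was at 57.1% (49.1 to 64.9) of 147 CTCF peaks on X, against 85.4% (84.5 to 86.3) of 5749 on autosomes. More than 1 kb from start sites it was at 13.3% (11.9 to 14.9) of 1960 on X, against 46.7% (46.4 to 47.1) of 72767 on autosomes. At the X-inactivation centre, where Xist and its antisense partner Tsix lie, 6 of 9 genes had shared, 0 SMARCA5-only and 6 CTCF-only sites within 10 kb, against 70.0%, 25.2% and 65.2% of all protein-coding genes. The whole X chromosome held only 38 SMARCA5-only sites. Of the CTCF peaks near these genes, 35.9% carried SMARCA5, against 16.4% of all CTCF peaks on X. A peak near several of the genes counts for each in the first share. Xist had 5 shared and 3 CTCF-only sites, and these share peaks with Tsix, while Ftx had 6 CTCF-only sites and no SMARCA5 peak. The 4 longest runs of sites of a single class in the genome were CTCF-only runs on X. The longest had 53 sites in a row at chrX:8776498-12081462, a region of 36 protein-coding genes among them Otc, Cybb and Bcor. The next 3 had 36, 35 and 34 sites, with Hprt, Sox3 and Diaph2 among their genes. The fifth had 32 sites at chr8:16030452-17537921, over Csmd1. The longest shared run had 16 sites at chr3:88141796-88264017, over Mef2d and Rhbg, and the longest SMARCA5-only runs had 5.

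CTCF sites found in more of the reprogramming control lists carried SMARCA5 more often. Sites were ranked by how many of 3 control lists of reprogramming cells held them: day 0 with luciferase shRNA, day 10 with the reprogramming factors OSKM, and SSEA1- Thy1- cells with luciferase shRNA. SMARCA5 was at 36.2% of ESC CTCF peaks found in none of these, 40.5% of those in 1, 50.5% of those in 2 and 66.9% (66.4 to 67.5) of those in all 3. On the autosomes the shares were 36.6%, 41.4%, 51.6% and 68.0%. On X they were 16.4%, 13.8%, 13.8% and 20.0% (17.0 to 23.5), so X lay below the autosomes at each level.

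**Figure D5:**
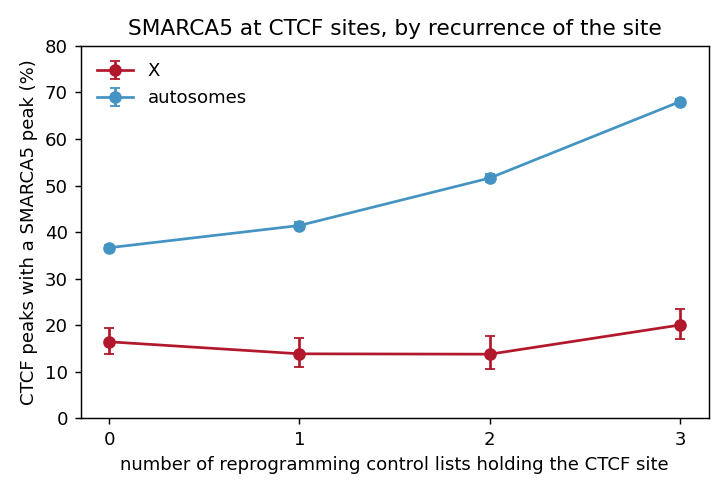
Percentage of wild-type ESC CTCF peaks with a SMARCA5 peak (vertical axis) by the number of 3 reprogramming control lists that also hold the site (horizontal axis), for X and autosomes, with Wilson 95% intervals that cover counting error only. Autosomal shares run from 36.6% to 68.0%, and X shares stay between 13.8% and 20.0%.

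Over all 13 reprogramming-cell lists, the median shared site was in 10, the median SMARCA5-only site in 0 and the median CTCF-only site in 4. Sites in all 13 made up 29.5% of shared, 0.657% of SMARCA5-only and 10.7% of CTCF-only sites. Sites in none of them made up 13.1%, 77.7% and 25.9%. With the Smarca5 knockout ESC list added, sites in none of the 14 lists made up 0.619%, 40.2% and 1.23%. SMARCA5-only sites were nevertheless not free of CTCF elsewhere. In day 10 cells with OSKM, 7.36% of them had a CTCF peak, and in day 10 cells with OSKM and Ctcf 13.7% did. Shared sites had one in 63.9% and 71.3%, and CTCF-only sites in 36.4% and 45.3%, of the same lists. The 2 lists share a coordinate set and have 1 list each, so the differences have no replicate check.

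Where Ctcf was knocked down during reprogramming, shared sites kept their CTCF peak more often than CTCF-only sites. A site counted as kept when it had a peak in the list with luciferase shRNA and in that with Ctcf shRNA. In Oct4-GFP+ cells 66.7% of shared and 50.5% of CTCF-only sites were kept, and in unsorted day 0 cells 80.5% and 65.1%. In SSEA1+ cells the shares were 89.1% and 77.5%, in SSEA1- Thy1- cells 88.3% and 77.7%, and in Thy1+ cells 85.8% and 79.5%. The day 3 Thy1+ samples carry labels that contradict each other on the shRNA, and the titles were followed. Shared minus CTCF only averaged 12.1 points over the 5 pairs (range 6.36 to 16.2, SD 3.99, higher in 5 of 5). An exact two-sided sign-flip test gave a p of 0.0625, the smallest that 5 pairs can give. The pairs score the same classes of ESC sites, with a single list per condition, so they are not independent replicates. The test was added after the data were seen. Among sites that were also in the 2 control lists named above from other stages, the difference averaged 4.76 points (0.770 to 11.5, same p), and in the 3 sorted groups other than Oct4-GFP+ it was at most 1.38 points. The fewer SMARCA5-only sites with a CTCF peak in the luciferase list, 162 to 560 per pair, were kept in 46.8% (Thy1+) to 68.0% (SSEA1- Thy1-) of cases. With Smarca5 shRNA at day 10, on top of OSKM and Ctcf, 99.3% of shared, 87.5% (85.1 to 89.5, of 894) of SMARCA5-only and 99.3% of CTCF-only sites were kept. The control list with OSKM and Ctcf comes from a group with replicate ChIP samples, and the Smarca5 shRNA list from a single sample. The part of this difference in the kept shares was not tested.

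SMARCA5-only sites were interleaved with the other classes along the chromosomes. The next site after a SMARCA5-only site was shared in 46.2% of cases, SMARCA5 only in 7.31% and CTCF only in 46.5%, close to the shares of the classes among all sites (45.0%, 7.30% and 47.7%). Shared and CTCF-only sites were followed by a site of their own class slightly more often than those shares, in 48.5% of cases for shared and 51.2% for CTCF-only sites. The median SMARCA5-only site lay 10.8 kb (10.4 to 11.2, order-statistic 95% interval) from the nearest shared site, against 11.3 kb between shared sites and 16.2 kb from a CTCF-only site to a shared one. A shared site lay within 2 kb of 13.04% of SMARCA5-only sites, 7.98% of shared sites and 5.49% of CTCF-only sites.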

How the data were processed

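ChIP-seq peak lists of mouse cells were used as deposited. Each deposited list gives 400 bp intervals and a score column that is 0 in every line. Per the submitters' processing notes, the build was mm10 and the tools included Trim Galore, FastQC, Bowtie2, MACS2, HOMER, SAMtools, bedtools, deepTools and Picard. The sources used here give no settings, peak threshold or way of pooling samples. Read depth and partial loss of binding cannot be seen in such lists.

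Samples were grouped by title. Sites were classed by an overlap of at least 1 bp. Genes and start sites were those of RefSeq on GRCm38.p6. A gene counted the 400 bp intervals that overlapped its span or the 10 kb around it, and distances to start sites were taken from peak centres. Promoter entries existed for 17492 of 21887 protein-coding genes. Exons and introns were not used here. Gene lists and members were chosen with earlier results of these data known. In each list, in list order, up to 4 members with a SMARCA5-only site, up to 4 with only shared sites and up to 4 with CTCF-only sites and no SMARCA5 peak were named, with the 10 genes with the most sites of a class and genes at the 5 longest runs. Some genes that this rule names are not reported here. Other named genes (Pou5f1, Fgf4, Zdbf2, Pole3, Rbbp4, Rsf1, Cecr2, Xist, Tsix, Hoxd8, Hoxd9, Hoxd10, Rplp0, Rps4x, Pds5b, Rpl35a and Neurog1) were chosen after their values were seen. The class, gene and window counts were checked on simulated lists. The fit is descriptive, with no test across genes. The sign-flip test and the recurrence restriction beside it were added after seeing the data. Alternatives changed the overlap, the CTCF list, the chromosomes and the windows. Python 3.11.15, NumPy 2.4.6, SciPy 1.17.1, pandas 2.3.3 and matplotlib 3.10.9 were used.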

Additional observations from a re-analysis of the deposited data

How the results depend on the processing

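The lists give presence only, from single lists of unknown depth, and SMARCA5 and CTCF come from different cells, so cells, pulldown and depth cannot be told apart from binding. No paired analysis was possible because the SMARCA5 and CTCF lists hold no replicate numbers, each being the 1 list of its group. For the same reason no replicate was left out. The sign-flip test of the knockdowns pairs lists, not replicates.

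The share of SMARCA5 peaks with CTCF (86.1%) and of CTCF peaks with SMARCA5 (48.6%) was the same with an overlap of at least 200 bp. That setting could change nothing, because all shared sites had the same start in both lists. The 2 shares were 86.8% and 49.1% with centres within 1 kb and 92.7% and 47.3% with either ESC CTCF list. With any of the 15 CTCF lists they were 94.4% and 43.2%. Without X and Y, CTCF peaks with SMARCA5 came to 49.4%. On X the share stayed between 16.2% and 16.6% with centres within 1 kb, either ESC list or the knockout list, settings added after seeing the data. On autosomes it was 50.0%, 48.1% and 48.5% under the same settings. With 2.5 kb around start sites, 29.0% of SMARCA5-only, 16.6% of shared and 6.05% of CTCF-only sites were near a start, in the same order as with 1 kb. Without X and Y, the median CTCF-only site lay 15.3 kb from a shared site. With an overlap of 200 bp, 13.9% of shared, 82.5% of SMARCA5-only and 26.4% of CTCF-only sites were in none of the 13 reprogramming-cell lists. Of all protein-coding genes, 52.0%, 16.9% and 43.5% had a shared, SMARCA5-only and CTCF-only site inside the span, 82.9%, 45.5% and 87.7% within 50 kb, and 84.8%, 30.5% and 78.9% within 10 kb among genes with any site. With the peak centre inside the promoter window, the CTCF core was in 28.6% of shared, 15.1% of SMARCA5-only and 21.7% of CTCF-only windows. The kept difference under Ctcf shRNA fell to 4.76 points among sites in both other control lists, against 12.1 points over all sites. The cause of these moves was not tested beyond their construction. Of 126 further alternatives for single gene lists, 59 stayed inside the counting interval of the reported share.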
